A study of Danio rerio with 12 samples.

Results

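Gut endoderm transcription factors are described here in cells sorted from zebrafish gill and intestine. They are the FOXA genes foxa3, FOXA1 and FOXA2, the caudal gene cdx1b, the GATA genes gata4, GATA5 and GATA6, and the HNF4 genes HNF4A and HNF4G, with symbols written as in the gene name table. The members were taken by name from a list that was drawn up with earlier results of these data known. The 9 reported here are 9 identifiers of the 32520 in the count table. Filtering on low counts kept 5 of the 9 for testing among 10666 genes, and FOXA1, FOXA2, gata4 and HNF4A, the 4 that did not pass, are described by their values.

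FOXA proteins open closed chromatin in endoderm before other factors bind, and GATA factors of the endodermal subgroup act beside them from gastrulation into the adult gut. Caudal (CDX) factors set intestinal identity along the gut in vertebrates. HNF4 nuclear receptors maintain the digestive, absorptive and lipid-handling genes of enterocytes and liver in mammals. These families regulate each other's genes in the developing and adult gut. Among mouse macrophages, GATA6 is known from those of the peritoneal cavity.

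All 4 groups came from adult fish with the same transgenes, sox17:CreERT2 together with mpeg1:loxP-DsRedx-loxP-GFP. The first places a drug-inducible recombinase under sox17, an endoderm gene, and the second a switchable cassette under mpeg1, a macrophage gene. A GFP cell is thus marked by past sox17 activity and present mpeg1 activity, and an unswitched mpeg1 cell stays DsRedx. The series calls the GFP cells metaphocytes and the DsRedx cells macrophages. Gill GFP, gill DsRedx, intestine GFP and intestine DsRedx each had 3 libraries, made by SMART-seq2 from pools of 30 to 50 sorted cells. The age is given only as adult, and the labels give neither the induction time nor whether replicates came from separate fish, so p-values measure the spread between these libraries, which may be technical.

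Library totals ran from 5895669 to 12365233 counts, with 9506 to 13278 genes detected. CPM are counts scaled to TMM-adjusted library size, and TPM are the deposited length-scaled values, used where genes are compared with each other. MPEG1, the gene behind the color cassette, was counted in all 4 groups, more in DsRedx cells. MPEG1 (ENSDARG00000055290) stood at 351 ± 107 CPM (SD, n = 3) in the gill GFP group and 264 ± 42.9 CPM in its intestine counterpart, against 1538 ± 1054 and 1815 ± 378 CPM in DsRedx cells of those tissues. The pan-leukocyte gene ptprc stood at 1.85 ± 0.386 and 2.79 ± 0.502 CPM in the gill and intestine GFP groups and at 464 ± 118 and 497 ± 273 CPM in the DsRedx groups. The epithelial adhesion gene epcam ran the other way, at 1244 ± 724 and 1619 ± 703 CPM in the GFP groups and 25.4 ± 15.8 and 17.97 ± 2.69 CPM in the DsRedx groups. SOX17 itself, whose promoter drives the Cre, had 1, 47 and 552 counts in intestine GFP 1, 2 and 3 and 1, 0 and 0 counts in gill GFP 1, 2 and 3.

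The main pattern was a split by tissue and then by color. None of the 9 identifiers had a count in any of the 6 gill libraries, while 8 of them were counted in intestine GFP cells. Among the 10666 tested genes, 382 had an intestine GFP count and no gill count, the 5 tested members among them. For genes that did not pass the filter, such as the other 4 members, that share was not counted. Of the 32520 identifiers, 16104 had a TPM in intestine GFP, and single gill libraries counted 9506 to 11881 genes. A gene without a count in a gill library is therefore common, and the 0 counts of sparse members are a description only. The intestine DsRedx libraries held low counts of 7 identifiers. Over 20315131 pooled counts of gill GFP and 22133423 of gill DsRedx, a result of 0 allows up to 0.131 and 0.165 CPM (3 counts over the group, covering counting error only). Summed over the 9 identifiers, the level was 1311, 1312 and 1248 TPM in intestine GFP 1, 2 and 3 and 10.6, 11.9 and 10.95 TPM in intestine DsRedx 1, 2 and 3, groups that do not overlap. In pools of cells, fewer expressing cells and less RNA per cell cannot be told apart, and this holds for every level below.

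**Figure D1:**
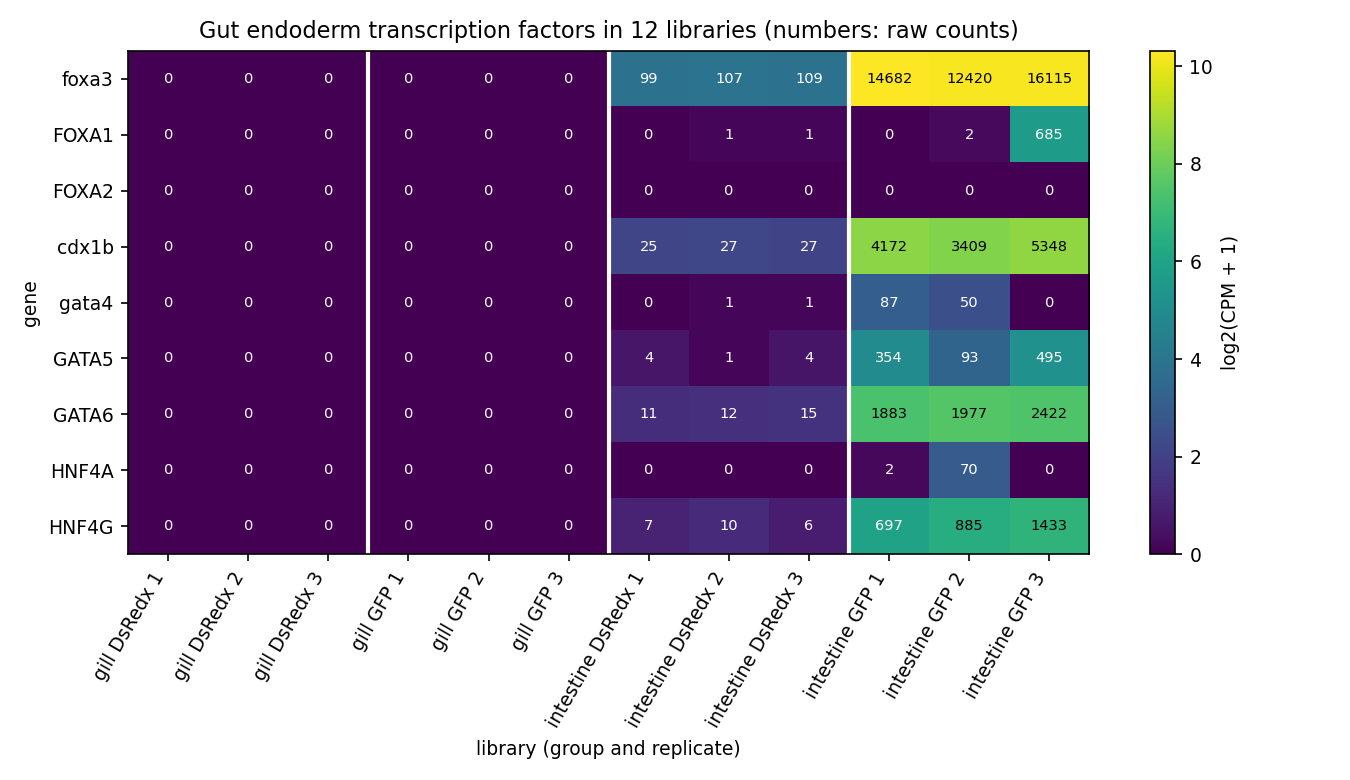
Level of each of the 9 identifiers (rows) in each of the 12 libraries (columns); color gives log2(CPM + 1) and the number in each cell is the raw count. The 6 gill columns hold 0 throughout, and the intestine GFP columns hold the highest count of every row that has any.

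foxa3 was the leading member. It is expressed in zebrafish endoderm and later in gut and liver. Its counts were 14682, 12420 and 16115 in intestine GFP 1, 2 and 3, and 99, 107 and 109 in intestine DsRedx 1, 2 and 3. All 3 GFP libraries lay far above all 3 DsRedx libraries, and the libraries of each color were close to each other. The means were 1215 ± 51.7 CPM in GFP cells and 13.8 ± 0.385 CPM in DsRedx cells (SD, n = 3), which edgeR fitted as 88.1-fold higher in GFP (log2 6.46, SE 0.85, adjusted p = 2.56e-04). Against gill GFP cells the level was at least 9285-fold higher (adjusted p = 2.08e-06), taking 3 counts over the gill group in place of 0. Both calls held in each of the 12 fits that left out 1 library.

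The other FOXA genes did not go with foxa3. FOXA1, a paralog that in mammals shares endoderm functions with FOXA2, had 0, 2 and 685 counts in intestine GFP 1, 2 and 3. Almost the whole of its level, 99.6% of the CPM summed over the group, thus came from 1 library. Its intestine DsRedx counts were 0, 1 and 1. FOXA2, needed for foregut, floor plate and axial mesoderm in vertebrates, had no count in any of the 12 libraries, and over the 30844357 pooled counts of intestine GFP that allows up to 0.0842 CPM.

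cdx1b, the zebrafish caudal gene used in intestinal differentiation, was steady across the GFP libraries. Counts were 4172, 3409 and 5348 in intestine GFP 1, 2 and 3 and 25, 27 and 27 in the DsRedx libraries, without overlap. The means were 360 ± 33.0 CPM and 3.46 ± 0.124 CPM, fitted as 103.8-fold higher in GFP (log2 6.70, SE 1.29, adjusted p = 0.00598). That call ended without intestine GFP 1 (adjusted p = 0.0503), intestine GFP 3 (0.0874) or intestine DsRedx 1 (0.0517). Against gill GFP cdx1b was at least 2753-fold higher (adjusted p = 2.56e-04), a call kept in all 12 leave-one-out fits. Its paralog cdx1a, no member of the list, had 909, 1282 and 428 counts in intestine GFP 1, 2 and 3, 3, 62 and 9 in DsRedx, and none in gill.

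The GATA genes differed in evenness. GATA6, which in mammals is expressed along the gut epithelium, had 1883, 1977 and 2422 counts in intestine GFP 1, 2 and 3 and 11, 12 and 15 in DsRedx. Its means of 177 ± 12.9 and 1.65 ± 0.177 CPM gave a fitted 105.9-fold higher level in GFP (log2 6.73, SE 1.70, adjusted p = 0.0330). Leaving out any of the 6 intestine libraries ended that call, with adjusted p from 0.136 to 0.2, as did size factors by RLE (0.0585) and no filter (0.059). Against gill GFP the fold was at least 1351 (adjusted p = 0.00365), past the threshold in all 12 leave-one-out fits.

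GATA5, in zebrafish an early regulator of endoderm and heart, had 354, 93 and 495 counts in intestine GFP 1, 2 and 3 and 4, 1 and 4 in DsRedx. The groups did not overlap, and the means were 25.3 ± 14.5 and 0.393 ± 0.227 CPM. The fitted fold of 62.1 did not pass the edgeR threshold (adjusted p = 0.174), nor did the fold of at least 193.4 against gill GFP (adjusted p = 0.0938). gata4, which works with GATA6 in mammalian gut and marks proximal intestine there, had 87, 50 and 0 counts in intestine GFP 1, 2 and 3 and 0, 1 and 1 in DsRedx, so the groups overlapped. Summed over the family, GATA transcripts were even between GFP libraries, at 172.9, 178.1 and 164.4 TPM. The TPM ratio of GATA6 to GATA5 was 4.76, 19.04 and 4.38 in intestine GFP 1, 2 and 3.

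Of the HNF4 nuclear receptors, HNF4G carried nearly all counts. It is the paralog found in mammalian intestine beside HNF4A. Its counts were 697, 885 and 1433 in intestine GFP 1, 2 and 3 and 7, 10 and 6 in DsRedx, without overlap. The means were 83.4 ± 22.3 and 1.01 ± 0.296 CPM, a fitted 81.3-fold that did not pass (adjusted p = 0.113). Against gill GFP the level was at least 637.6-fold higher (adjusted p = 0.0239), a call that ended without any 1 of the gill GFP or intestine GFP libraries (0.0759 to 0.133). HNF4A had 2, 70 and 0 counts in intestine GFP 1, 2 and 3, so 97.5% of its summed CPM came from 1 library, and 0 in the 3 DsRedx libraries.

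Compared per transcript length in TPM, foxa3 stood apart in intestine GFP cells. Its level, with a mean of 912.5 ± 70.8 TPM (SD, n = 3), was 73.4%, 71.95% and 66.6% of the members' summed TPM in GFP 1, 2 and 3, and ranked 132 among 16104 genes with any TPM in the group. GATA6 followed with 142.4 ± 16.2 TPM and cdx1b with 138.3 ± 4.62 TPM. Then came HNF4G at 49.3 ± 11.7 and GATA5 at 22.3 ± 12.02 TPM. FOXA1 at 17.3 ± 29.8, gata4 at 7.21 ± 6.61 and HNF4A at 1.19 ± 1.99 TPM closed the order above FOXA2, which is listed at 0. Between neighbours in that order, the ranges of the 3 libraries were apart from foxa3 to GATA6, from cdx1b to HNF4G and from HNF4G to GATA5, and every other neighbouring pair overlapped or, for the last, met at 0.

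**Figure D2:**
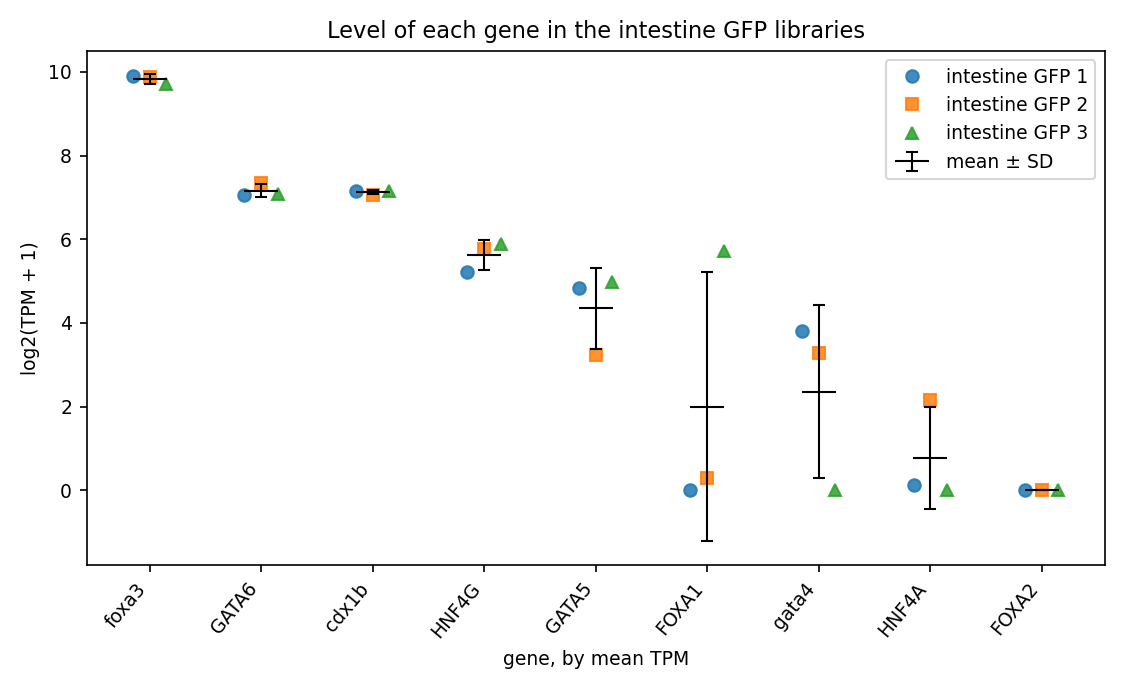
Deposited level of each identifier in the 3 intestine GFP libraries as log2(TPM + 1), ordered by mean TPM; points are libraries and the black bar is their mean ± SD on the log2 scale. foxa3, GATA6 and cdx1b lie close together across libraries, while FOXA1, gata4 and HNF4A each have at least 1 library at 0.

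foxa3 varied little between the intestine GFP libraries. Its coefficient of variation over the intestine GFP libraries was 4.26%, and 1.68% of the 1313 tested genes with at least 100 CPM in that group had a lower value. Only 5.79% of those genes were above foxa3 in level, so most of the comparison is with lower genes. GATA6 had 7.30% and cdx1b 9.16%, with 5.64% and 7.77% of those genes lower. The median over the 1313 genes was 27.7%.

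Taking the comparisons as wholes, 3 of the 5 tested members were called higher in GFP than in DsRedx cells of the intestine (foxa3, cdx1b and GATA6), beside 2.09% of all genes tested. The GFP and DsRedx libraries did not overlap in these 5, of which GATA5 and HNF4G passed the low-count filter through their GFP libraries alone, while in FOXA1, gata4 and HNF4A, which did not pass it, the groups overlapped or met at 0. The share of all tested genes without such overlap was not counted, so the lack of overlap is a description only. GATA5 and HNF4G, which did not pass, had fitted folds of 62.1 (log2 5.96, SE 2.53) and 81.3 (log2 6.345, SE 2.12). Within these SE they were not apart from the 88.1 to 105.9 of the others. Folds of this size were not particular to the members: TM4SF4, VIL1 and FABP6 had 90.4, 97.3 and 105.2, while PROX1 had 32.4. The members' folds rest on the low DsRedx counts described below. With only the 6 intestine libraries in the edgeR fit 4 of 5 were called, beside 7.34% of genes, and GATA5 was not (adjusted p = 0.0564). DESeq2 and limma-trend on log2(TPM + 1) called all 5, beside 12.2% and 8.2% of genes.

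Between tissues in GFP cells, 4 of the 5 tested members were called higher in intestine, beside 1.33% of genes, and the exception was GATA5. With no gill count, all 5 passed the low-count filter through intestine libraries alone. A call between tissues, in either color, could thus only be higher in intestine, a limit that does not hold for all genes. In gill, GFP against DsRedx gave no call among the 5 with edgeR, where 4.59% of genes were called, and none had an unadjusted p under 0.05. Both gill groups are at 0 for these genes, so no test could call them and no fold is given.

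Whether the color difference itself differs between tissues was tested with the interaction term. Because both gill groups are at 0, edgeR gives no usable estimate: 0 of 5 members were called and none had an unadjusted p under 0.05, beside 0.0938% of genes called in that direction. limma-trend on log2(TPM + 1), where a value of 0 is a number, called 5 of 5 with a larger GFP excess in intestine, beside 1.71% of genes. With the gill difference fixed at 0, this term gives the intestine difference over again. The difference of differences was 6.64 (SE 1.16) for foxa3, 6.13 (SE 1.17) for GATA6 and 6.09 (SE 1.16) for cdx1b on the log2(TPM + 1) scale, each with adjusted p = 0.0328. For HNF4G it was 5.07 (adjusted p = 0.0332) and for GATA5 4.01 (adjusted p = 0.0487). DESeq2 called 3 of 5 (foxa3, cdx1b and GATA6), beside 4.54% of genes. It too had no gill count from which to take a gill difference, so these calls are no separate comparison of tissues. With a pseudocount of 0.1 in place of 1 limma-trend called no gene at all, members included.

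The counts in intestine DsRedx cells were low and in near-constant proportion to those in GFP cells. The mean DsRedx CPM was 1.13% of the GFP mean for foxa3, 0.960% for cdx1b, 0.936% for GATA6, 1.21% for HNF4G and 1.55% for GATA5. Of all intestine counts of foxa3, 0.724% lay in DsRedx libraries (exact 95% binomial interval 0.646 to 0.808%, counting error only). By library, DsRedx 1, 2 and 3 had 1.12%, 1.17% and 1.11% of the GFP mean CPM of foxa3. The shares of foxa3, cdx1b and GATA6, the members with at least 100 CPM, can be set beside other genes of that range.

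Of the 1313 tested genes with at least 100 CPM in intestine GFP, 140 (10.7%) had a DsRedx mean under 1.5% of the GFP mean. The 5th percentile of the share was 1.09%, the lowest was 0.603% and the median 81.6%. There were 45 genes of the 1313 (3.43%) with no count in any gill library, foxa3, cdx1b and GATA6 among them, and 38 of the 45 had a share under 1.5%. In the reverse direction, 116 of 1517 genes with at least 100 CPM in intestine DsRedx had a GFP mean under 1.5% of the DsRedx mean. Whether transcripts or reads passing between libraries of a tissue put these counts there was not tested.

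**Figure D3:**
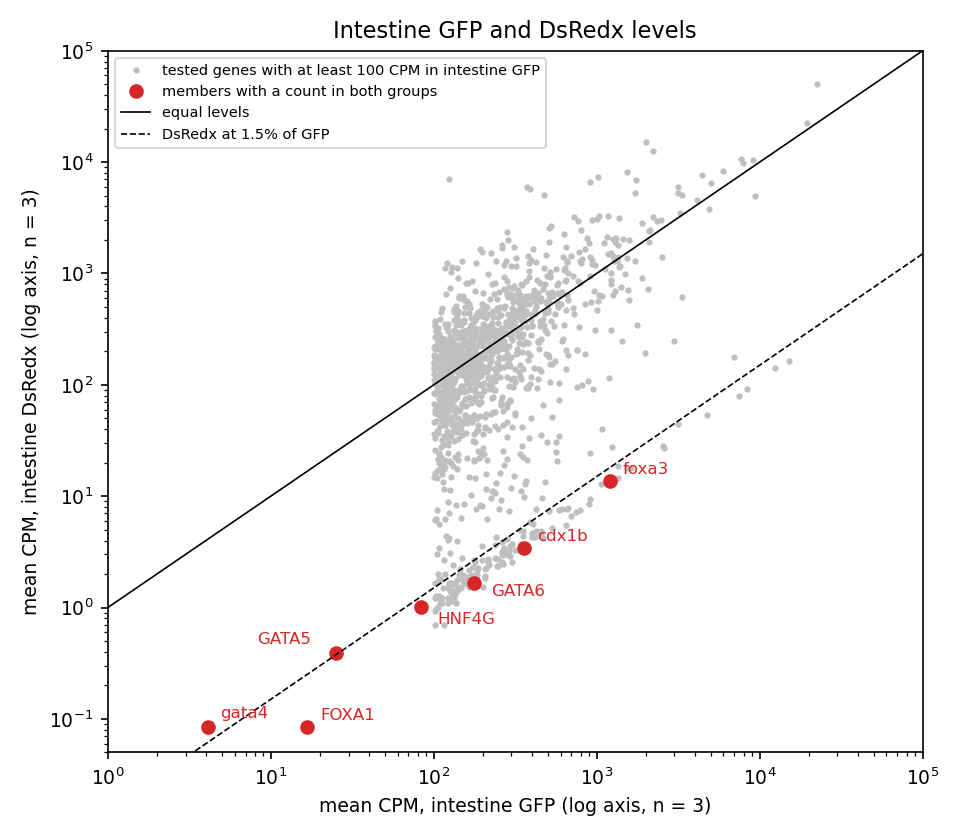
Mean CPM in intestine GFP (x, log axis) against intestine DsRedx (y, log axis), n = 3 libraries each; grey points are the 1313 tested genes with at least 100 CPM in GFP, red points are the members with a count in both groups (HNF4A and FOXA2 have none in DsRedx), and the dashed line is 1.5%. foxa3, cdx1b and GATA6 lie along the lower edge of the cloud, HNF4G, GATA5, FOXA1 and gata4 lie below its 100 CPM limit, and the 7 run from 0.509% (FOXA1) to 2.08% (gata4) of the GFP mean.

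Between tissues in DsRedx cells, 2 of the 5 tested members were called higher in intestine, beside 0.534% of genes. foxa3 was at least 83.7-fold higher (adjusted p = 6.12e-04) and cdx1b at least 21.0-fold higher (adjusted p = 0.0345). These calls rest on the low counts just described. With only the 6 DsRedx libraries fitted foxa3 had adjusted p = 0.155, and cdx1b was lost in 9 of 12 leave-one-out fits (0.0584 to 0.139), those without any 1 intestine GFP, intestine DsRedx or gill DsRedx library. After removal of a low level shared by the libraries of a tissue, an alternative chosen after seeing the data, foxa3 had adjusted p = 0.152, cdx1b had an adjusted p of 1 and no member was called, beside 0.00943% of genes. In the intestine DsRedx libraries that level was 0.219 to 0.24% of the other intestine libraries' summed count. The DsRedx counts of foxa3, cdx1b and GATA6 were 0.175 to 0.252% of their summed GFP count per library. The removal thus takes away most or all of them. It can only widen the color difference and leaves the DsRedx tissue comparison little to test. Under it foxa3, cdx1b and GATA6 were called between the intestine colors (adjusted p = 1.34e-04, 0.00393 and 0.0275), beside 1.27% of genes. Between tissues in GFP cells it left foxa3 and cdx1b, but no other member, called (4.37e-05 and 0.00887), beside 0.434% of genes.

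**Figure D4:**
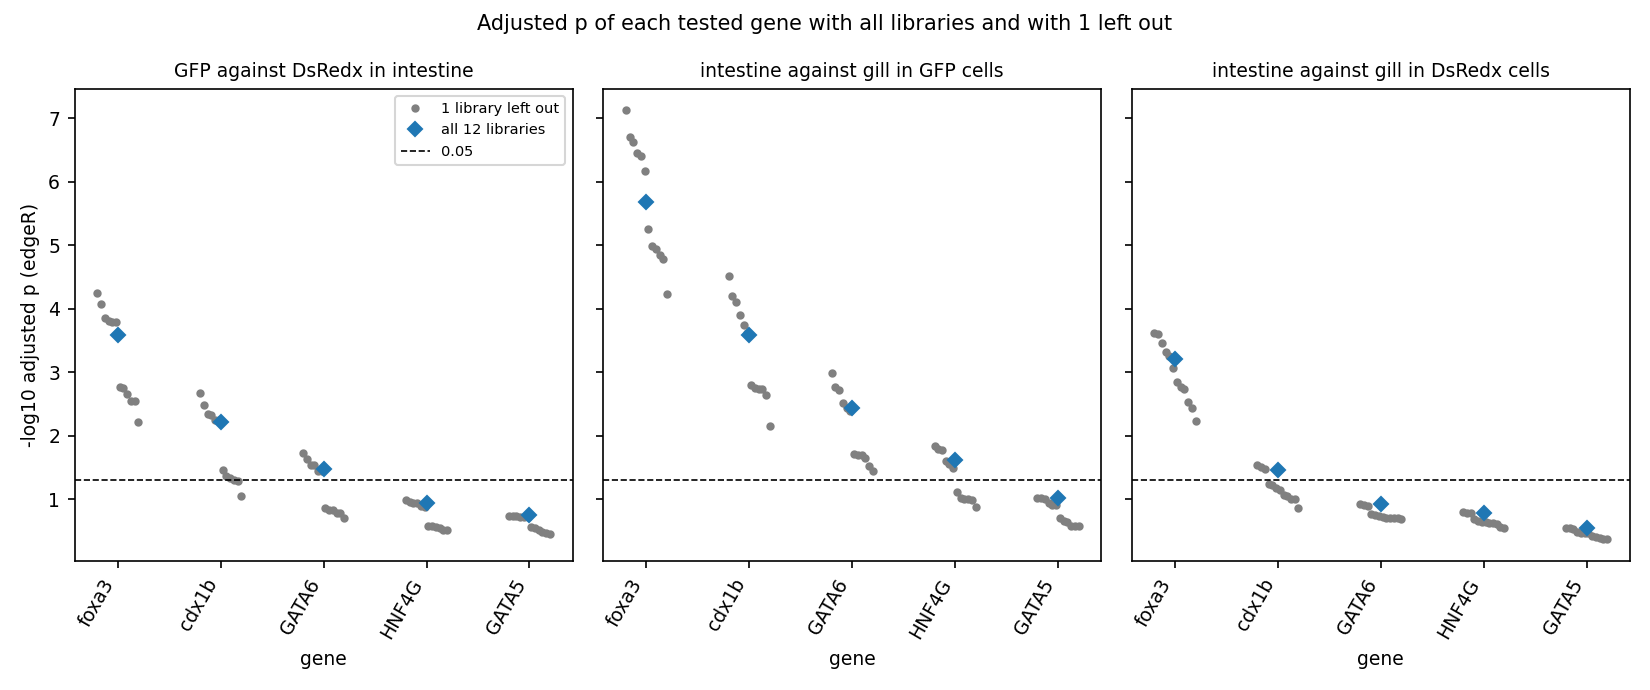
edgeR adjusted p (as -log10) of the 5 tested identifiers in 3 comparisons, with all 12 libraries (blue diamonds) and with 1 library left out in turn (grey points, 12 per gene); the dashed line is 0.05. Every foxa3 point lies above the line in all 3 panels, and GATA5 lies below it throughout.

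Some genes were counted almost wholly in 1 of the 3 intestine GFP libraries, and the sparse members were among them. HNF4A had 70 of its 72 counts in intestine GFP 2, and FOXA1 had 685 of its 687 in intestine GFP 3. Of the 10951 genes with at least 50 counts over the intestine GFP libraries, 1783 (16.3%) had at least 95% of their summed CPM in 1 library, 435 of them in GFP 1, 793 in GFP 2 and 555 in GFP 3. FOXA1 and HNF4A are among these genes. gata4 is not (61.2%, 38.8% and 0%), and foxa3 took 35.0%, 32.6% and 32.4% of its summed CPM from the same 3 libraries.

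The same measure was taken on the lists, each over its genes with at least 50 counts. Of 11 goblet and enteroendocrine genes, 9 lay in GFP 2 and 2 in GFP 3. The hormone gene CCK had 40, 7427 and 49 counts in intestine GFP 1, 2 and 3, and AGR2, which processes mucins, had 0, 0 and 396. Of 12 secretory and enteroendocrine factors, 5 lay in GFP 2, 2 in GFP 3 and 5 in no single library. NEUROD1, a driver of enteroendocrine differentiation, had 1, 416 and 2 counts, and atoh1b, of the family that commits gut cells to secretory fates, had 1, 1 and 469. GFI1B, by contrast, had 540, 322 and 474 counts, and PAX6 (ENSDARG00000103379) had 151, 168 and 282.

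Some enterocyte genes also lay in GFP 2, but most lay in no single library. Of 54 with at least 50 counts, 17 had at least 95% of their CPM in GFP 2, beside 7.24% of all genes with at least 50 counts. Of the others, 1 lay in GFP 1, none in GFP 3 and 36 in no single library. MTTP, which loads lipid onto lipoproteins, had 0, 168 and 2 counts in intestine GFP 1, 2 and 3, and SLC5A1, a sodium-glucose transporter, had 1, 234 and 0. HNF4A thus shared its library with enteroendocrine genes and with 17 of the 54 enterocyte genes. The genes named here were picked after their values were seen, except CCK and GFI1B. The part of single cells in the levels of FOXA1 and HNF4A was not tested.

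**Figure D5:**
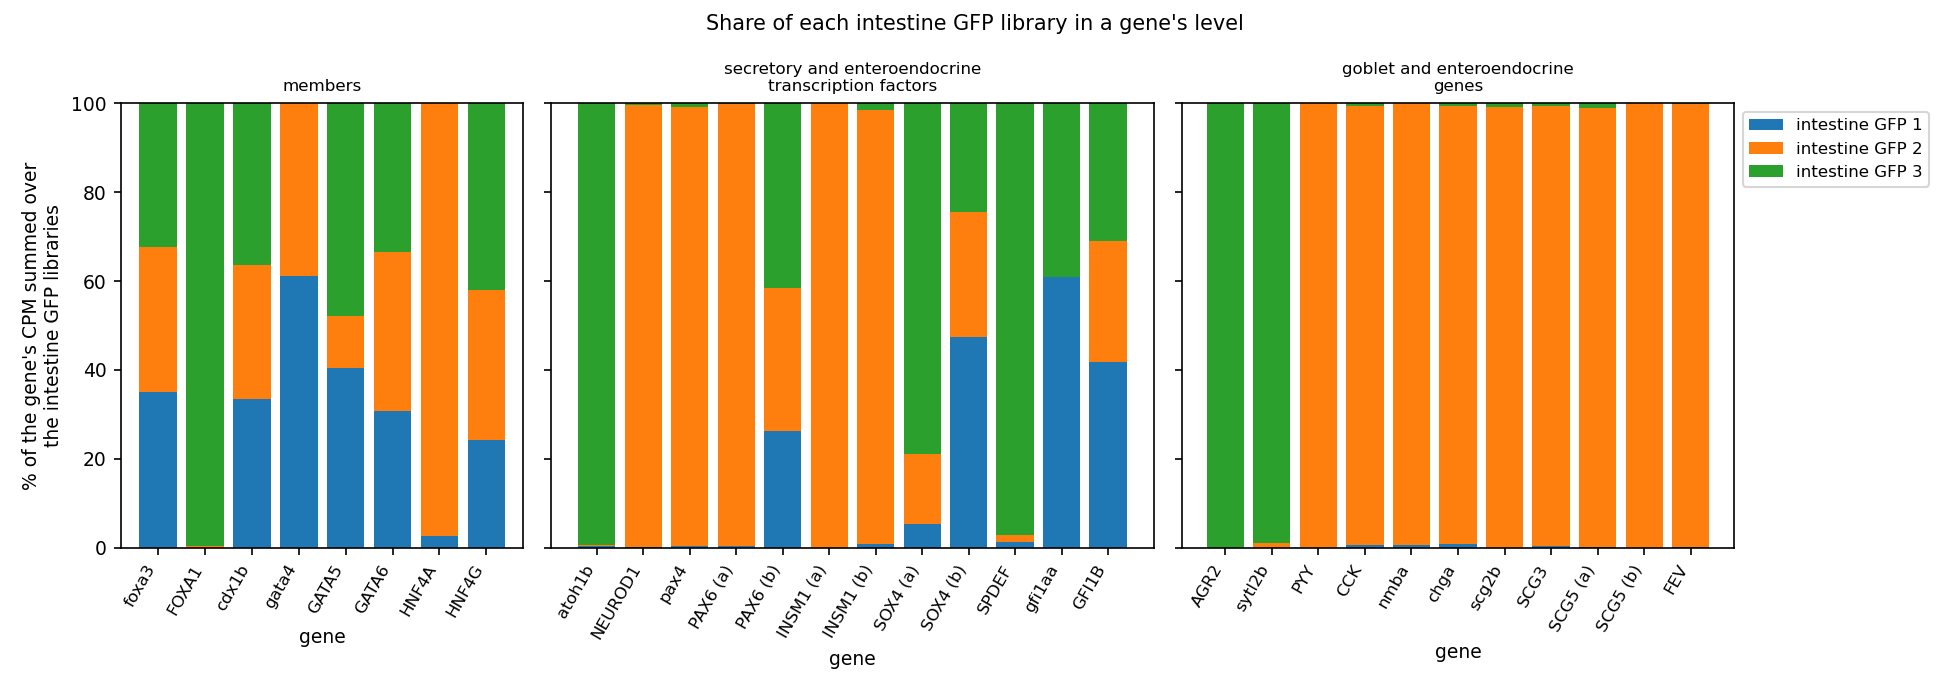
Share of each intestine GFP library (color) in the CPM of a gene summed over the 3 libraries, for the 8 members with a count and for every gene of the secretory and enteroendocrine factor list and of the goblet and enteroendocrine list with at least 50 counts; identifiers that share a symbol are marked a and b. HNF4A stands in GFP 2 and FOXA1 in GFP 3, the other members are spread, and 5 of the 12 listed factors are in no single library.

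The genes whose log2(CPM + 1) over the 12 libraries was most like that of foxa3, among 4617 candidates, were cldn15la (Pearson r = 0.9994), cldn3d (0.9985), cldn15lb (0.9984), VIL1 (0.9981) and FABP6 (0.9974). The first of these encode claudins of tight junctions, VIL1 encodes the brush border protein villin and FABP6 a bile acid binding protein of ileal enterocytes. In all, 14 genes reached r of at least 0.99. cldn15la had 1198 ± 119 CPM in intestine GFP, close to the 1215 ± 51.7 CPM of foxa3, and no count in gill.

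For cdx1b the nearest were TMEM45B, gucy2cb, ldlra, TM4SF5 and tm4sf21a, with r from 0.9990 to 0.9996. For GATA6 they were USH1C, which encodes the microvillar scaffold harmonin, CORO2A, atp2a1l, tm4sf21b and PLAC8 (0.9986 to 0.9998). For HNF4G they were CALML4, zgc:136872, PPP1R3C, RGS4 and, at 0.9972, GATA6. These correlations run over libraries of 4 groups and reflect shared group levels, with no p.

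Other regulators of gut and epithelium mostly did not pass. Of 43 found, 25 were tested, and between the intestine colors 1 was higher in GFP and 1 lower, near the share over all genes (2.09% higher and 2.03% lower). ELF3, an epithelial ETS factor, was higher (141 ± 174 against 1.46 ± 0.552 CPM, adjusted p = 0.0294), with 9, 904 and 4576 counts in GFP 1, 2 and 3 and 15, 10 and 8 in DsRedx 1, 2 and 3, so the groups overlapped. PRDM1, also used by macrophages, was lower in GFP (230.6-fold, adjusted p = 6.12e-05). It was the call of the list in gill too, at 269.3-fold lower (adjusted p = 6.03e-05), beside 2.31% of all genes called lower there. The median log2 difference of the list in intestine was 1.54, beside 0.08 over all genes tested. Between tissues in GFP cells 1 of the 25 was called, beside 1.33% of all genes called higher. It was cdx1a, at least 593.5-fold higher in intestine (adjusted p = 0.0408), which without a gill count could only be called higher.

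Secretory and enteroendocrine factors gave 2 calls of 6 tested in each color comparison, all higher in GFP, beside 2.09% of all genes in intestine and 2.29% in gill. GFI1B, of the growth factor independence repressors, was higher in intestine (37.5 ± 8.37 against 0.434 ± 0.263 CPM, adjusted p = 0.0461) and in gill (99.1 ± 119 against 1.21 ± 0.552 CPM, adjusted p = 0.0451). SOX4 (ENSDARG00000004588) was higher in intestine (53.2 ± 63.7 against 0.394 ± 0.0217 CPM, adjusted p = 0.0444), with 97, 262 and 1721 counts in GFP 1, 2 and 3. The other SOX4 identifier (ENSDARG00000098834) was not called, with 530, 287 and 324 counts in intestine GFP and 806, 384 and 8 in intestine DsRedx. In gill the second call was pou2f3, the tuft cell regulator of mammals (175.8 ± 104 against 1.53 ± 0.560 CPM, adjusted p = 0.0355). pou2f3 had no count in intestine GFP, where it was at least 2087-fold lower than in gill GFP (adjusted p = 0.00356), the reverse of the gut factors and a direction called in 0.703% of all genes.

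Liver and pancreas factors gave PROX1, a homeobox gene of liver, pancreas and lymphatics, as higher in GFP in both tissues: 251.6 ± 16.9 against 7.74 ± 8.38 CPM in intestine (adjusted p = 0.00639) and 299.9 ± 83.0 against 2.72 ± 0.394 CPM in gill (adjusted p = 0.00106). CEBPB, also a macrophage gene, was lower in GFP in both (57.4-fold and 8.86-fold, adjusted p = 6.94e-06 and 9.71e-04). The list had 3 tested of 12 found, so PROX1 and CEBPB were each 1 of 3. Over all genes 2.09% were called higher and 2.03% lower in intestine, and 2.29% and 2.31% in gill. Of 19 tested cofactors of GATA and HNF4, 1 was called, beside 2.03% of all genes called lower in intestine GFP. It was ppargc1b, lower in intestine GFP (10.1 ± 12.2 against 354.1 ± 309 CPM, adjusted p = 0.0350). Early endoderm genes gave 5 tested of 18 found. The chemokine receptor CXCR4 (ENSDARG00000041959) was lower in intestine GFP than in intestine DsRedx (10.7-fold, adjusted p = 0.00128) and than in gill GFP (13.4-fold, adjusted p = 0.00102). It was 1 of 5 in each, beside 2.03% and 0.703% of all genes. The other CXCR4 identifier (ENSDARG00000057633) was not called, with 9, 625 and 232 counts in intestine GFP and 379, 170 and 1008 in intestine DsRedx. For the difference of color effects 1 of the 5 was called, in the lower direction, beside 0.0563% of genes.

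Enterocyte effector genes, which these factors regulate in mammals, followed the tissue split in part. Of 86 found, 31 were tested. In intestine 7 were higher in GFP than DsRedx cells, beside 2.09% of all genes. Between tissues 12 were higher in intestine GFP than gill GFP and 5 in intestine DsRedx than gill DsRedx, beside 1.33% and 0.534%. Of the 86, 60 were at 0 in gill GFP and 63 in gill DsRedx. A gene at 0 in gill could only be called higher in intestine, a limit that does not hold for all genes. The calls between tissues are therefore a description only. Among the 5 of the DsRedx comparison, TM4SF4 and VIL1 stood at 92.0 and 9.36 CPM in intestine DsRedx against 8321 and 912.5 CPM in intestine GFP. RBP2 and FABP2, also among them, stood at 198.1 ± 224 and 25.6 ± 19.4 CPM in intestine DsRedx. With the low shared level removed, 0.00943% of all genes were called higher in that comparison. In gill, ace was lower in GFP, a call that rests on 1 library, with 1, 1 and 1157 counts in gill DsRedx 1, 2 and 3 and 2, 2 and 0 in gill GFP. TM4SF4 had 108752, 83562 and 102744 counts in intestine GFP and none in gill (at least 63610-fold higher, adjusted p = 7.67e-10). VIL1 had 912.5 ± 227 CPM in intestine GFP, 9.36 ± 0.521 in intestine DsRedx (adjusted p = 6.00e-04) and 2 counts in gill. FABP6 had 792.7 ± 193 and 7.52 ± 0.344 CPM in the intestine colors (adjusted p = 6.12e-04). The median log2 difference of the 31 between intestine colors was 5.35, beside 0.08 over all genes tested. Summed over the 86, the level was 22060, 21470 and 21550 CPM in intestine GFP 1, 2 and 3, against 1210 to 2693 CPM in intestine DsRedx and 519 to 2340 CPM in gill. TM4SF4 and chia.5 carried 76.2%, 68.05% and 73.3% of those GFP sums. Without the pair the sums were 5246, 6860 and 5763 CPM, and 33, 56 and 30 of the 86 genes had at least 10 counts.

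Markers of other cells were checked beside these results. Of the pancreatic acinar and liver list 49 genes were found, 39 were at 0 in all intestine GFP libraries, and the sum was 3.39 to 35.5 CPM there and 0.618 to 2.89 CPM in intestine DsRedx. Of the endothelial, stromal and muscle list 20 of 29 were at 0 in intestine GFP, with sums of 1184 to 1977 CPM against 229 to 302 CPM in intestine DsRedx. Its 3 tested genes, MYH11, TAGLN and thy1, stood at 755.7, 452.1 and 263.5 CPM in intestine GFP and 95.9, 35.4 and 3.14 CPM in intestine DsRedx. Of these thy1 was called higher in intestine GFP than DsRedx (adjusted p = 0.0151), and MYH11 and TAGLN were not. TAGLN was higher in intestine than gill GFP (adjusted p = 0.0175). Lymphoid, neutrophil and erythroid genes summed to 13.1 to 66.2 CPM in intestine GFP and 84.6 to 237 CPM in intestine DsRedx, npsn being higher in GFP in both tissues (adjusted p = 0.0412 and 0.0197). The gill ionocyte and pavement list had 1 call of 6 tested in each tissue, beside 2.09% and 2.29% of all genes called higher. It was icn, higher in GFP in intestine (adjusted p = 1.03e-05) and gill (3.36e-04). Epithelial identity genes were higher in GFP for 18 of 33 tested in intestine and 13 in gill, beside 2.09% and 2.29% of all genes. Leukocyte genes were lower in GFP in 24 and 20 of 46, beside 2.03% and 2.31% of all genes, and 1 was higher in gill GFP. The part of admixed epithelial cells in the levels of the gut factors was not tested.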

How the data were processed

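Raw counts were deposited by the authors as whole numbers per Ensembl gene, and TPM were deposited by the authors in a second table. STAR, featureCounts and the danRer11 build are named in the submitters' processing notes. Tool versions, annotation, strand use and how reads of similar gene copies were counted were not stated there. Over 4982 genes, count divided by TPM matched a gene factor times a library factor to 4.4e-08 (natural log). Symbols came from a gene name table (29201 matched, 3319 without). No promoter or protein sequence is shown.

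All 12 libraries entered edgeR 4.0.16 in R 4.3.3 (filterByExpr by group, TMM, 1 mean per group, quasi-likelihood F test with 8 residual degrees of freedom among samples). That number is of the design. The members are at 0 in every gill library, so their own spread is seen in the intestine libraries only. p-values were Benjamini-Hochberg adjusted over 10666 genes and called under 0.05. A fold against a group at 0 uses 3 counts over that group. The SE given with an edgeR fold was derived as its absolute log2 value divided by the square root of the F statistic. Alternatives were RLE, no filter, 10 CPM in 3 libraries, DESeq2 1.42.0, limma-trend 3.58.1 on log2(TPM + 1) or log2(TPM + 0.1) with a filter at 1 TPM or none, the groups compared alone, a replicate-number block, each library left out and, chosen after seeing the data, removal of a low shared level. For that removal, the 5th percentile over genes with at least 10000 counts in the other libraries of the tissue set each library's level, 0.219 to 1.09% of those libraries' summed count. The edgeR step was also run on simulated counts, with changes set in intestine GFP alone. No gene was set to 0 in a whole group there, so that run does not bear on members at 0 in gill.

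The members, the 13 gene lists (460 identifiers found for 474 names) and the tests were chosen with earlier results of these data known. Named by rule were all members and, per list and comparison, up to 4 called genes of highest CPM or 2 where none was called. The 5 tested genes most correlated with each member called were added, among genes with at least 50 CPM in 1 group. The text leaves out some genes the rule allows, and some genes of the original lists are not reported here. Library totals of 5895669 to 12365233 counts limit the precision, and intervals cover counting error only.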

Additional observations from a re-analysis of the deposited data

Results flagged for a closer look

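For each of the 5 tested identifiers, the difference between GFP and DsRedx cells was larger in intestine than in gill, by the interaction term of limma-trend on log2(TPM + 1), with all gill libraries at 0. The adjusted p was 0.0328 for foxa3, cdx1b and GATA6, 0.0332 for HNF4G and 0.0487 for GATA5, beside 1.71% of all genes called in that direction. The differences of log2(TPM + 1) ran from 4.01 (GATA5) to 6.64 (foxa3), where the gill difference is fixed at 0 and the term gives the intestine difference over again. With log2(TPM + 0.1) none of the 5 was called, and without a filter 3 were. DESeq2 also called 3, beside 4.54% of genes, again with no gill count from which to take a gill difference. edgeR could not estimate this term for genes at 0 in both gill groups.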

How the results depend on the processing

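foxa3 kept its direction and its call under every alternative run, low level removal and leave-one-out included, in the intestine color comparison and between tissues in GFP cells. No member changed direction under any alternative in the intestine comparison, where fitted log2 differences ranged from 6.23 to 10.77 for foxa3, 6.09 to 14.58 for cdx1b, 6.13 to 13.56 for GATA6, 5.07 to 9.08 for HNF4G and 4.01 to 6.997 for GATA5, the highest of each being that with the low shared level removed. That removal lowers mainly the DsRedx side of these genes and can only widen the color difference. It leaves cdx1b and GATA6 at 0 in DsRedx, so 14.58 and 13.56 are not estimates of a fold. Deviations of same-numbered libraries correlated at -0.0319 to 0.0399. These values cannot tell whether libraries of the same replicate number share fish, and the main fits use no pairing. With the number as a replicate block GATA6 between the intestine colors had adjusted p = 0.0555, with 385 against 439 genes called there and 218 against 217 between tissues in GFP cells. The cause was not tested.

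Members called between the intestine colors were 3, and 5 with DESeq2 or with limma-trend at either pseudocount or without a filter, 4 with the 2 groups alone and 1 to 3 with 1 library left out. Between tissues in GFP cells they were 4, 2 with the low shared level removed and 3 to 4 with 1 left out. Between tissues in DsRedx cells they were 2, 4 with DESeq2, 1 with RLE, with log2(TPM + 0.1) or with no TPM filter, 0 with log2(TPM + 1) or the low level removed, and 1 to 2 with 1 left out. For the difference of color effects they were 0, 3 with DESeq2, 5 with limma-trend on log2(TPM + 1) and 3 with it unfiltered, and 0 with any 1 left out.

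All genes called between the intestine colors were 439, against 1876 (DESeq2), 1155 and 1158 (limma-trend, pseudocount 1 and 0.1), 918 (unfiltered limma-trend), 1079 (2 groups alone), 273 (low level removed) and 181 to 543 (1 left out). Between the gill colors they were 490, against 2618, 755, 772, 236 (2 groups alone), 251 (low level removed) and 231 to 492. Between tissues in GFP cells they were 217, against 1092, 761, 790, 583 (unfiltered limma-trend), 68 (low level removed) and 96 to 273. Between tissues in DsRedx cells they were 81, against 1639, 49 (RLE), 151 (log2(TPM + 0.1)), 267 (no filter), 2 (low level removed) and 35 to 83. For the difference they were 16, against 834, 9 (RLE), 269 and 0 (pseudocount 1 and 0.1), 89 (unfiltered limma-trend), 107 (no filter) and 1 to 17. The cause of these shifts was not tested. HNF4G and GATA5 have at most 10 counts in any DsRedx library, which limits the precision of their folds.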
